A study of Mus musculus with 2 samples.

Results

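The subject is a split among secretory cells of the adult mouse oviduct. When the authors clustered adult and neonatal cells together, adult cells with secretory genes fell into 2 clusters, numbered 2 and 4. Merged cluster 2 held 98 distinct adult cells and merged cluster 4 held 85, so 183 of the 403 distinct adult cells, or of 642 cells of both ages, are described here. A cell was taken by the authors' merged cluster number, and each barcode was counted once. The series holds 1 adult library, of C57BL/6 mice at estrus, and 1 library of C57BL/6 pups at postnatal day 4 (P4), both of dissociated oviduct cells, sorted by flow cytometry with Epcam and CD45 antibodies, in a 10x 3' droplet assay. The labels give neither the adult age in weeks nor how many animals were pooled. None of the 239 P4 cells of the merged table lay in clusters 2 or 4.

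Secretory cells of the oviduct make the fluid in which egg and sperm meet. Their best known product is the oviductal glycoprotein, made from Ovgp1, and proteins of this kind are folded in the endoplasmic reticulum before they leave the cell. A droplet library counts molecules from the nucleus, the cytoplasm and the mitochondria of whatever entered the droplet. Malat1, Neat1 and Xist are long RNAs that stay in the nucleus, genes with the prefix mt- are transcribed inside mitochondria, and immediate early genes such as Fos are switched on within minutes of a stimulus, tissue dissociation included.

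Clusters are made from expression, so a difference in level between them describes the split and is no test of it. With 1 adult library no value has a replicate, and cells are not replicates. Levels are therefore pooled UMI (counted molecules) per 10000 UMI of a set of cells, with exact 95% Poisson intervals in brackets that cover counting error only. A gene counted as measured when it had a UMI in at least 10% of the cells of either group, and differences of at least 2-fold were counted.

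Both clusters carried secretory and epithelial RNA. The summed level of 8 secretory markers had a median per cell of 76.4 in merged cluster 2 and 66.8 in merged cluster 4, against 5.20 in merged cluster 0, the multiciliated cluster. Epcam, the epithelial surface protein of the sort, stood at 6.45 (5.81 to 7.16) and 6.62 (5.20 to 8.29). Pax8, a transcription factor gene of Müllerian duct epithelium, stood at 0.858 (0.633 to 1.14) and 0.882 (0.423 to 1.62), from 48 and 10 counts. Not all markers were alike. Of 8 epithelial markers 2 were at least 2-fold lower in merged cluster 4, Cdh1 (60 against 1 counts) and Cldn4 (109 against 4), and 0 higher. Of 8 secretory markers 1 was lower, Msln (115 against 2 counts), and 1 higher, Ovgp1. Of all measured genes 23.9% were lower and 4.15% higher. The cilium regulator Foxj1 had 9 and 2 counts, and Ptprc, which encodes CD45, had 0 in both. The lowest sum of secretory markers was 21.3 in merged cluster 2, while 5 cells of merged cluster 4 had none.

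The separate clustering of the adult cells cut across this split. Of the 98 cells of merged cluster 2, 79 carried adult cluster number 0, 12 number 5, 6 number 4 and 1 number 1. Of the 85 cells of merged cluster 4, 49 carried number 0, 24 number 4 and 11 number 5, and 1 was not in the adult table. The cells of adult clusters 0, 4 and 5 were thus each divided between merged clusters 2 and 4.

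The merged clusters differed in depth. Merged cluster 2 held 559404 UMI, with a median of 5101 per cell (1815 to 15527), and merged cluster 4 held 113368, with a median of 1177 (502 to 3710). Median genes per cell were 1960 and 624. Below 2000 UMI lay 2 cells of merged cluster 2 and 70 of merged cluster 4, between 2000 and 4000 UMI 15 and 15, and from 4000 UMI up 81 and 0. The ranges overlapped over few cells: 20 cells of merged cluster 4 were deeper than the shallowest of merged cluster 2. A count of 3, the smallest taken as a level here, equals 0.0536 per 10000 in merged cluster 2 and 0.265 in merged cluster 4, so a gene under that level could not be shown in merged cluster 4.

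Malat1 divided the clusters almost completely. In merged cluster 2 each of the 98 cells had at least 22.2 Malat1 UMI per 10000 (median 169.5, highest 498.6). In merged cluster 4 the median was 0, 55 of 85 cells had none, 80 lay below 20, and 5 lay above, at 36.8, 49.8, 392.9, 1633 and 3486. Those 5 cells held 502 to 815 UMI, and the last was the cell without an adult cluster number. The pooled level of Malat1 (chromosome 19, 5795690 to 5802672, minus strand, build GRCm38, a long non-coding RNA gene) was 187.4 (183.8 to 191.0) against 31.1 (27.97 to 34.6). The mark of 20 was set after the values were seen, and 6 cells of merged cluster 2 and 13 of merged cluster 4 lay between 10 and 40.

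**Figure D1:**
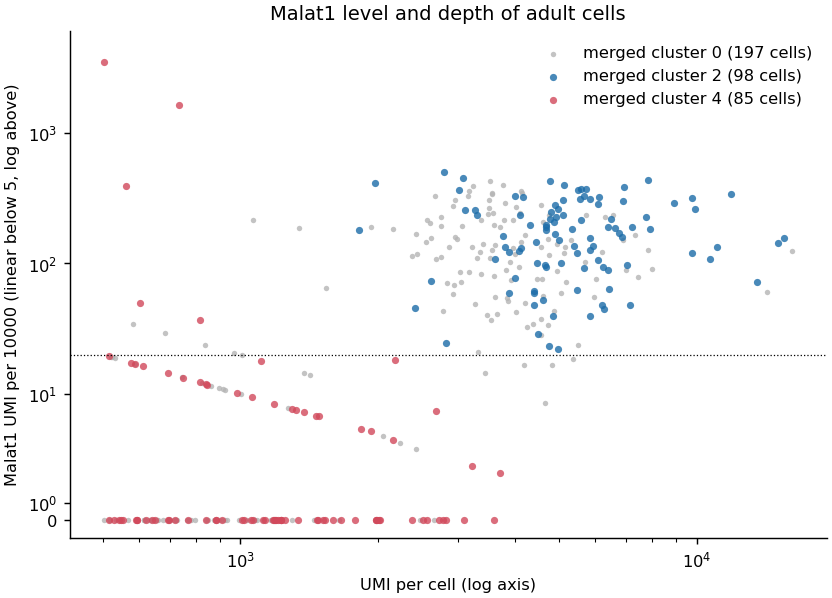
Malat1 UMI per 10000 (vertical, linear below 5 and logarithmic above) against UMI per cell (horizontal, logarithmic) for adult cells of merged clusters 2, 4 and 0, 1 point per cell, with a dotted line at 20. All 98 cells of merged cluster 2 lie above the line and 80 of 85 cells of merged cluster 4 lie below it, also between 2000 and 4000 UMI where both clusters hold 15 cells; the slanted rows of points are cells with 1 or a few Malat1 UMI.

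At like depth the Malat1 levels did not overlap. Among cells of 2000 to 4000 UMI, the 15 of merged cluster 2 had 24.8 to 498.6 Malat1 UMI per 10000 and the 15 of merged cluster 4 had 0 to 18.3, with 10 at 0. Median depths in this range were 3264 UMI in merged cluster 2 and 2690 in merged cluster 4. The 15 of merged cluster 2 are among its shallowest cells, with a median mitochondrial share of 8.49% against 5.43% over that cluster. The pooled Malat1 counts of the 15 and 15 cells were 1019 and 9. The gap was thus larger among cells of like depth (log2 fold −6.47) than over all cells (−2.59), where the 5 high cells add to merged cluster 4.

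Other nuclear RNAs were lower in merged cluster 4 as well. Xist, which coats the inactive X chromosome (X, 103460366 to 103483254, minus strand), had 494 counts in 93 of 98 cells and 6 counts in 4 of 85 cells, or 8.83 (8.07 to 9.65) against 0.529 (0.194 to 1.15). Neat1, the scaffold of paraspeckles (chromosome 19, 5824708 to 5845478, minus strand), stood at 2.61 against 0.353. Kcnq1ot1, which silences imprinted genes, was at least 2.50-fold higher in merged cluster 2 (37 against 0 counts), and Meg3 had 44 against 1 counts (ratio interval of merged cluster 2 over 4, 1.52 to 360.1). The 7 RNAs of this list summed to 200.3 against 32.1, most of it Malat1. Besides Malat1, the measured members passed the filter only through merged cluster 2 and the list was made after values were seen, so no count of them is read. Also, Xist and Kcnq1ot1 overlap genes on the other strand, and whether reads were counted by strand is not given in the sources used here.

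Mitochondrially encoded RNA went the same way, while the nuclear genes of the same respiratory complexes did not. Mitochondrial genes took a median of 5.43% of UMI per cell in merged cluster 2 (2.66 to 9.91) and 1.15% in merged cluster 4 (0.0843 to 7.57). At 2000 to 4000 UMI the medians were 8.49% and 0.715%. Of 12 measured mitochondrial genes 11 were at least 2-fold lower in merged cluster 4 (median log2 fold −1.88), beside 23.9% of all measured genes. In that list mt-Co1, a subunit gene of cytochrome oxidase, stood at 138.0 against 36.5 and mt-Atp6, of ATP synthase, at 140.7 against 38.9. Of 71 measured nuclear genes of oxidative phosphorylation 2 were higher in merged cluster 4, the ATP synthase gene Atp5j2 and the complex I gene Ndufv3, and 0 lower (median 0.51), beside 4.15% and 23.9% of all genes. Ribosomal protein genes took a like share of both clusters, 22.9% and 23.4% of UMI at the median.

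Over all genes, the direction of the split depended on the level of the genes counted. Of 5783 measured genes 1384 (23.9%) were at least 2-fold lower in merged cluster 4 and 240 (4.15%) at least 2-fold higher, with a median log2 fold of −0.22. Asking also that the counting interval of the ratio leave out 1 kept 448 lower (7.75%) and 202 higher (3.49%). Among the 1390 genes with a mean level of at least 1 per 10000, 81 (5.83%) were lower and 113 (8.13%) higher, with a median of 0.25. The share-of-cells filter admits low genes through the deeper cluster, and many of those are at or near 0 counts in merged cluster 4.

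**Figure D2:**
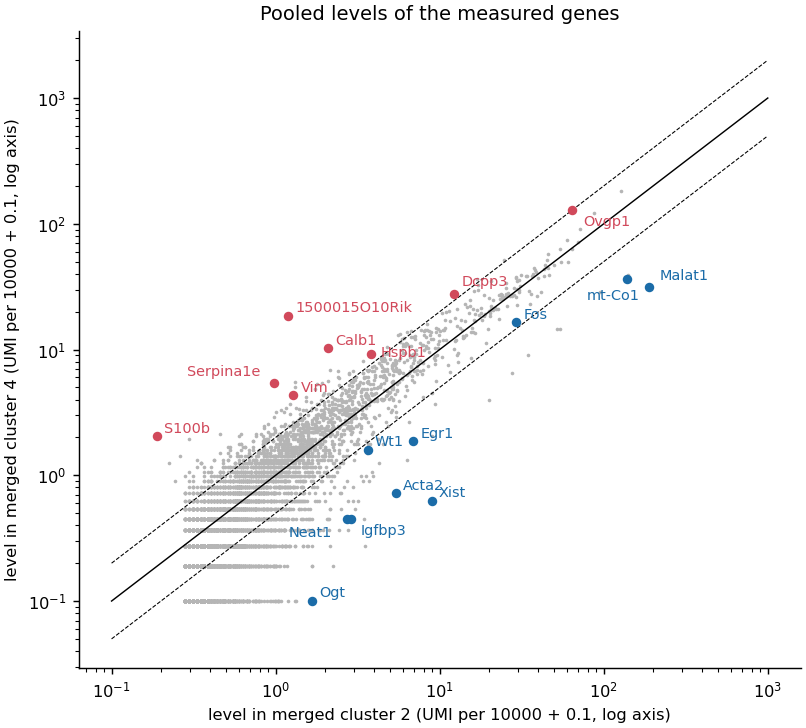
Pooled level of each measured gene in merged cluster 2 (horizontal) and merged cluster 4 (vertical), in UMI per 10000 plus 0.1 on logarithmic axes; the solid line marks equal levels, the dashed lines 2-fold, and coloured genes are named in the text (blue lower, red higher in merged cluster 4). The lowest row of points holds genes with 0 counts in merged cluster 4, Ogt among them, while Malat1, mt-Co1 and Xist lie below the 2-fold line at higher levels.

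The 12 genes with the largest folds toward merged cluster 2 were mostly absent from the counts of merged cluster 4. Of the 12, 10 had 0 counts there. All 12 passed the filter only through merged cluster 2, the deeper one. A ranking by fold favours such genes, so their absence is not read as a result. Ogt, which attaches N-acetylglucosamine to nuclear and cytoplasmic proteins, had 88 counts in 56 of 98 cells (1.57 per 10000), at least 5.95-fold higher. Xist was among them. So were the DNA and RNA binding protein gene Pura (at least 4.59-fold), the desmosome gene Dsp (at least 4.12-fold) and Ahcyl2, a regulator gene of ion transport (at least 3.72-fold). The nuclear receptor gene Nr2f2 was at least 3.58-fold higher. The bounds for the non-coding RNA Rmst, the amino acid transporter gene Slc38a2 and the chromatin protein gene Kmt2e were 3.51-fold each, and that for the chloride channel gene Cftr was 3.45-fold. H2-Q4, a class I histocompatibility gene of a family of near copies, had 119 against 1 counts. Des, the muscle intermediate filament gene desmin, was at least 4.66-fold higher and is taken up with the smooth muscle genes.

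Genes higher in merged cluster 4 had counts on both sides. Calb1, a calcium buffer gene (chromosome 4, 15881264 to 15908064, plus strand), stood at 1.98 (1.63 to 2.39) against 10.1 (8.38 to 12.2). It had a UMI in 27 of 98 and 42 of 85 cells although the latter were shallower. Calb1 was higher in merged cluster 4 within adult cluster 0 (0.965 against 7.85) and within the cells of 2000 to 4000 UMI (0.811 against 10.1). Both sets are part of the cells by which Calb1 was chosen. Them5, an acyl-CoA thioesterase gene of mitochondria, had 11 against 21 counts (log2 fold 2.72) and S100b, a calcium-binding protein gene, 5 against 22 (3.43). The levels of S100b in merged cluster 4, 1.94, were below those of the multiciliated cluster, 3.34.

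The other genes of that group have varied roles. Thrsp, a regulator gene of lipid synthesis, stood at 1.22 against 5.47, the glutathione transferase gene Gstt2 at 1.22 against 4.94 and the potassium channel subunit gene Kcne3 at 2.04 against 6.79. The intermediate filament gene Vim stood at 1.18 against 4.23, the homeobox gene Hoxb6 at 0.518 against 2.03 and the exonuclease gene Isg20 at 0.501 against 1.94. Ccdc167 (20 against 23 counts) and Cdv3 (0.912 against 3.09) complete the list. Thrsp, Gstt2, Vim, Hoxb6, Kcne3, Isg20, Ccdc167 and Cdv3 were also at least 2-fold higher in merged cluster 4 among the cells of adult cluster 0 alone. Those cells are 79 of the 98 and 49 of the 85 by which the genes were chosen, so this is no independent support. Between the adult cluster 0 cells of the 2 merged clusters, 394 of 5691 measured genes (6.92%) were higher in merged cluster 4 and 1633 (28.7%) lower.

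Serpina1e and 1500015O10Rik showed a different distribution. Serpina1e, a protease inhibitor gene of a family of near copies (chromosome 12, 103946931 to 103958975, minus strand), stood at 0.876 against 5.29. Its counts came from few cells: 46 of 49 counts in merged cluster 2 and 52 of 60 in merged cluster 4 lay in cells of adult cluster 5, and 1 cell of each merged cluster held 27 and 29 of them. In adult cluster 0 cells it had 3 and 0 counts. The secreted peptide gene listed as 1500015O10Rik, outside the naming rule and chosen after its values were seen, stood at 1.09 (0.834 to 1.40) against 18.4 (15.9 to 21.0). In merged cluster 4, 196 of its 208 counts lay in 22 of the 24 adult cluster 4 cells, and 0 in adult cluster 5 cells.

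Ovgp1 (chromosome 3, 105973711 to 105987423, plus strand) changed direction with the adult cluster number. Over all cells it stood at 64.3 (62.2 to 66.4) in merged cluster 2 and 129.4 (122.9 to 136.2) in merged cluster 4, 2.01-fold higher in the latter. The per-cell medians ran the other way, 54.5 (0 to 262.4) and 38.9 (0 to 1200), and 96 of 98 and 70 of 85 cells had a UMI. In cells of adult cluster 0 the pooled levels were 62.6 against 27.9 (log2 fold −1.16), and in cells of adult cluster 4 they were 178.3 against 372.9 (1.06). In cells of adult cluster 5 they were close, 42.8 (38.4 to 47.6) against 39.3 (30.25 to 50.15). The multiciliated cluster stood at 6.56.

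Within merged cluster 4 the cells of adult clusters 0 and 4 differed in median Ovgp1 level, with ranges that overlapped. The 24 adult cluster 4 cells had 38.9 to 1200 Ovgp1 UMI per 10000 (median 344.3), and the 49 adult cluster 0 cells 0 to 283.0 (median 10.0). Their median depths were 1039 and 1186 UMI. The 24 cells thus held 1225 of the 1467 Ovgp1 counts of merged cluster 4. Within merged cluster 2 the 6 adult cluster 4 cells had 85.0 to 262.4 and the 79 adult cluster 0 cells 0 to 228.9.

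Within merged cluster 4, 12 of 16 measured secreted product genes were at least 2-fold higher in adult cluster 4 than in adult cluster 0 cells, and 0 lower, beside 22.7% and 20.7% of all genes. Between the merged clusters they had no common direction. Agr2, whose protein helps fold mucins, stood at 4.16 against 3.61 in adult cluster 0 cells and 23.9 against 23.7 in adult cluster 4 cells. The iron-binding defence gene Ltf was lower in merged cluster 4 in both (7.81 against 1.88, and 13.02 against 6.39), as was the siderophore binder Lcn2 (15.9 against 10.4, and 39.8 against 25.9). Clu, a secreted chaperone gene, stood at 15.8 against 6.91 and 21.3 against 30.4. Dcpp3, of a family of near copies, was high in a few cells, with 679 counts in 13 cells and 315 in 15, of which the top cell held 388 and 110. Msln, the surface protein mesothelin, had 115 against 2 counts (ratio interval of merged cluster 2 over 4, 3.15 to 97.4), and the complement gene C3 stood at 4.13 against 1.85. Msln passed the filter only through merged cluster 2.

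**Figure D3:**
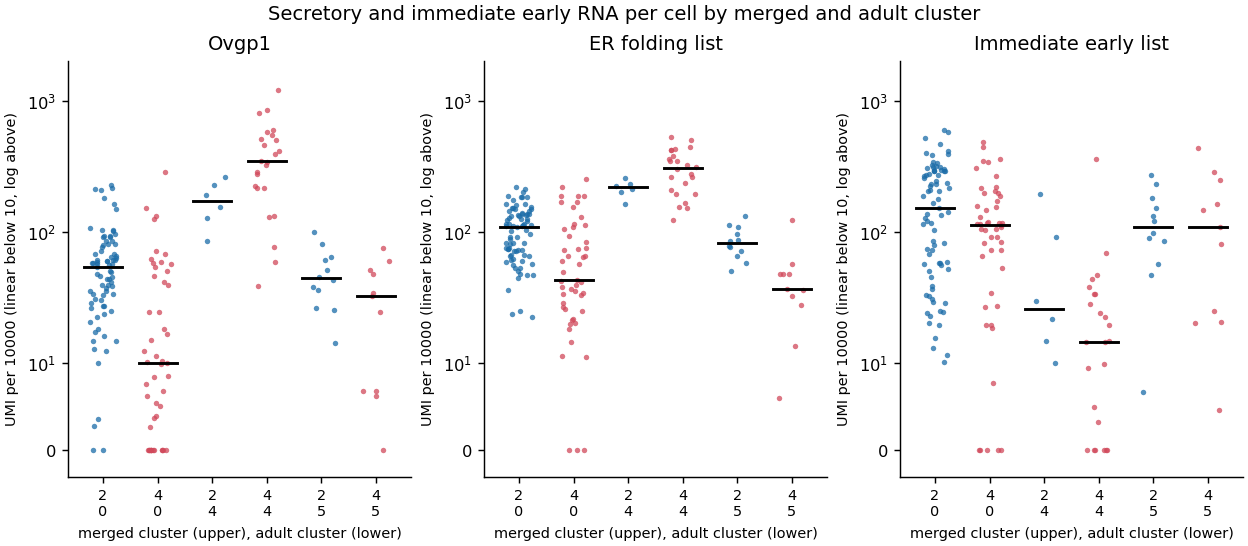
UMI per 10000 per cell (linear below 10, logarithmic above) of Ovgp1, of the endoplasmic reticulum folding list and of the immediate early list, for cells of merged cluster 2 (blue) and 4 (red) that carry adult cluster number 0, 4 or 5; bars are medians. The Ovgp1 medians are 53.4 and 10.0 in adult cluster 0 and 171.9 and 344.3 in adult cluster 4, and the immediate early medians of adult cluster 4 cells (25.6 and 14.5) lie below those of adult cluster 0 cells (151.8 and 113.3) in both merged clusters.

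Folding genes of the endoplasmic reticulum also differed by adult cluster number. Over all cells the list summed to 109.9 in merged cluster 2 and 131.5 in merged cluster 4, while the per-cell medians ran the other way, 105.5 and 72.2. The 24 adult cluster 4 cells held 1004 of the 1491 counts of merged cluster 4. Of 24 measured members 1 was higher in merged cluster 4, the prolyl isomerase gene Fkbp11 (0.751 against 1.76), and 1 lower, the chaperone gene Hyou1 (19 against 1 counts), beside 4.15% and 23.9% of all genes. Within merged cluster 4 the sum was 65.3 in adult cluster 0 cells and 305.6 in adult cluster 4 cells, and 18 of 23 measured members were at least 2-fold higher in the latter, where 22.7% of all 2253 measured genes were. In adult cluster 0 cells the sum was 108.8 in merged cluster 2 against 65.3, with 7 of 24 members at least 2-fold lower in merged cluster 4, a share near the 28.7% of all genes. In adult cluster 4 cells the sum was 215.9 against 305.6. In adult cluster 5 cells it was 86.3 against 43.6, with 12 of 24 members lower beside 55% of all genes.

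The promoters of 3 of these genes are printed as examples that hold an endoplasmic reticulum stress element, chosen after their levels inside merged cluster 4 were seen. The element was searched as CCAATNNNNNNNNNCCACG on both strands of RefSeq promoters (GRCm38.p6, 300 bases each, from 250 before to 50 after the gene start) and is in capitals. It was found for 7 of 23 folding genes with a promoter entry and for 37 of 27025 genes (0.137%). A match in letters is a description and not a site in use. The windows are chr2:34771840-34772139 on the plus strand for Hspa5, chr10:86705395-86705694 on the minus strand for Hsp90b1 and chr15:88819396-88819695 on the plus strand for Creld2.
Hspa5: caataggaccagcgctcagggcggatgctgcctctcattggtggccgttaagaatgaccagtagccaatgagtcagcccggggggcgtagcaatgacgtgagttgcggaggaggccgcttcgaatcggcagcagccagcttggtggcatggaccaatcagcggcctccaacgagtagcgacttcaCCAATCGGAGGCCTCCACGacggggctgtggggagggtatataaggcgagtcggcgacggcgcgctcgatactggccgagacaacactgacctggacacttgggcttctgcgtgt
Hsp90b1: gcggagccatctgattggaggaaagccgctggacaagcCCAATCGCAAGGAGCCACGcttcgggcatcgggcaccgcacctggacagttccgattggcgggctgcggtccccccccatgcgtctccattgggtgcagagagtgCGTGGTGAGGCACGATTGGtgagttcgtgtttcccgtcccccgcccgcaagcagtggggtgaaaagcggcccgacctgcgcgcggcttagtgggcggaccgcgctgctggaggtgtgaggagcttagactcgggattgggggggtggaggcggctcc
Creld2: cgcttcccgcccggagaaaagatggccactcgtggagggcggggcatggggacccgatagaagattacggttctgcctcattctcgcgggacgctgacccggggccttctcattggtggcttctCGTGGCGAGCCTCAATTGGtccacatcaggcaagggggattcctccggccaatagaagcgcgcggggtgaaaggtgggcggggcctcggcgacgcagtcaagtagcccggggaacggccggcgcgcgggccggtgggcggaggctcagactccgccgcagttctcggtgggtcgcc

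Hspa5, the main chaperone of the endoplasmic reticulum, stood at 2.04 in adult cluster 0 cells of merged cluster 4 and at 17.7 in adult cluster 4 cells. Hsp90b1, its partner chaperone, stood at 2.67 and 21.3, and Creld2, a disulfide isomerase-like gene, at 1.88 and 12.5. These genes were chosen with those levels in view, and 18 of 23 folding genes differed in that direction. Between the merged clusters in adult cluster 0 cells, Hsp90b1 was 13.3 against 2.67, Hspa5 6.71 against 2.04 and Creld2 2.71 against 1.88, the last less than 2-fold. Over all cells their log2 folds of merged cluster 4 over 2 were −0.05 (Hspa5), −0.71 (Hsp90b1) and 0.66 (Creld2).

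Immediate early genes summed to 161.8 in merged cluster 2 and 105.5 in merged cluster 4, with much overlap between cells. Of 21 measured genes 7 were at least 2-fold lower in merged cluster 4 and 0 higher (median log2 fold −0.78), beside 23.9% of all measured genes lower and 4.15% higher. The other 14 of the 21 were within 2-fold. The 7 were the transcription factor genes Fosb (3.84 against 0.882), Egr1 (6.78 against 1.76), Klf6 (9.28 against 3.62), Klf2 (1.61 against 0.706), Klf4 (1.29 against 0.441), Nr4a1 (1.63 against 0.529) and Myc (24 against 1 counts). Fos stood at 29.3 (27.9 to 30.7) against 16.4 (14.1 to 18.9) and Jun at 19.0 against 11.1, within 2-fold. Atf3 (5.79 against 5.82) and Btg2 (7.13 against 6.79) were close to equal. Per cell the list took a median of 1.30% of UMI (0.0670 to 5.95) in merged cluster 2 and 0.728% (0 to 4.80) in merged cluster 4, where 11 cells had none.

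The immediate early sum also differed between adult clusters. In adult cluster 0 cells it was 179.3 in merged cluster 2 and 139.5 in merged cluster 4, in adult cluster 4 cells 54.6 and 46.3, and in adult cluster 5 cells 123.9 and 90.8. Within merged cluster 4, 14 of 17 measured members were at least 2-fold lower in adult cluster 4 cells than in adult cluster 0 cells, where 20.7% of all measured genes were. Fos stood at 21.2 and 5.78 there. In adult cluster 0 cells, 3 of 21 members were at least 2-fold lower in merged cluster 4, beside 28.7% of all genes.

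The split in nuclear and mitochondrial RNA was present among cells with low and with high immediate early shares. Cells were divided at the median share over both clusters, 1.03% of UMI. Below it, 43 cells of merged cluster 2 and 48 of merged cluster 4 had Malat1 at 193.9 against 21.3 and mt-Co1 at 152.1 against 43.7. At or above it, 55 and 37 cells had Malat1 at 182.3 against 43.8 and mt-Co1 at 127.0 against 27.3. Ovgp1 changed sides, at 70.6 against 217.7 below the median and 59.3 against 15.6 above. The cut also sorted cells by adult cluster number. Most adult cluster 4 cells of merged cluster 4 fell below it, with an upper quartile of 0.336% of UMI. Those adult cluster 4 cells held 1225 of the 1467 Ovgp1 counts of merged cluster 4. Genes at least 2-fold lower in merged cluster 4 were 29.5% of those measured below the median share and 32.1% above it.

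Heat shock genes gave no common direction. Of 10 measured, 1 was higher and 1 lower in merged cluster 4 (median −0.09), beside 4.15% and 23.9% of all genes. Hspb1, a small heat shock protein gene (chromosome 5, 135887919 to 135889563, plus strand), stood at 3.74 against 9.17, and at 3.72 against 10.4 in adult cluster 0 cells. In adult cluster 5 cells it was 3.95 against 21.5, and in adult cluster 4 cells 2.89 against 0.913 (8 and 3 counts). Hspa1a, the inducible 70-kilodalton chaperone gene, had 47 against 0 counts, at least 3.18-fold higher in merged cluster 2. Hspa1a was in 15 of 98 cells and passed the filter only through merged cluster 2.

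**Figure D4:**
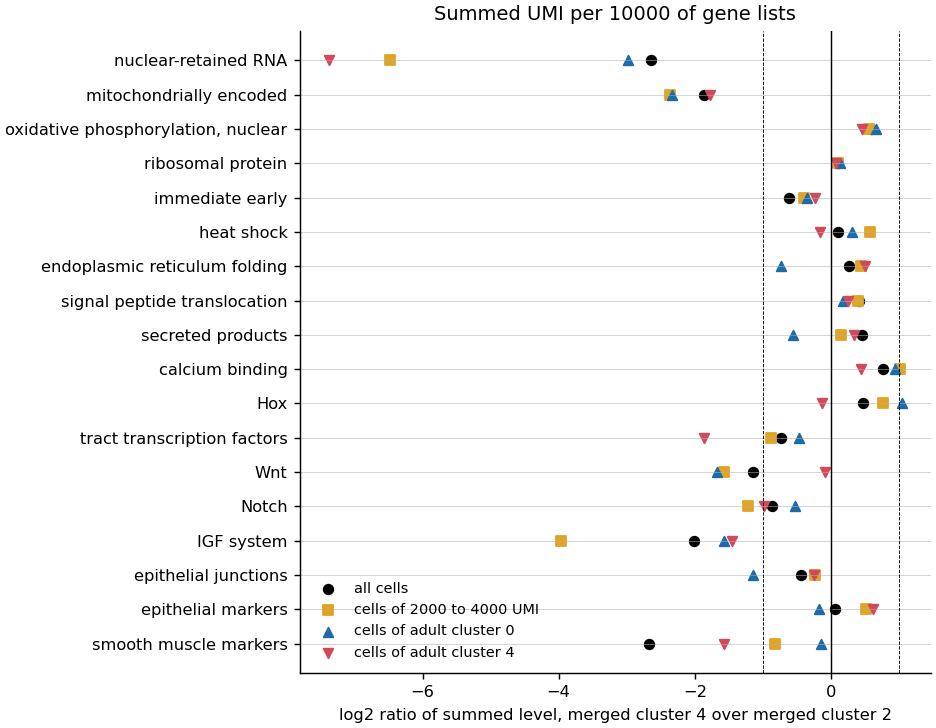
Log2 ratio of the summed UMI per 10000 of each gene list, merged cluster 4 over merged cluster 2, for all cells, cells of 2000 to 4000 UMI, and cells of adult clusters 0 and 4; dashed lines mark 2-fold. Nuclear-retained and mitochondrially encoded RNA lie left of the 2-fold line in all 4 sets, the ribosomal protein list stays near 0, and the folding and secreted product lists lie left of 0 in adult cluster 0 cells and right of it in the other sets drawn; adult cluster 5 cells, not drawn, had 86.3 against 43.6 and 152.1 against 138.1.

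Regulators and signalling genes were read by their summed level, since single genes had few counts in merged cluster 4. The single genes beside the sums are examples, chosen as members past 2-fold. The list of reproductive tract transcription factors summed to 12.98 against 7.76. Wt1 (chromosome 2, 105126529 to 105173616, plus strand) stood at 3.54 (3.06 to 4.07) against 1.5 (0.874 to 2.40), 198 against 17 counts, and at 4.04 against 2.35 in adult cluster 0 cells. Nr2f1, a relative of Nr2f2, had 38 against 0 counts, at least 2.57-fold, and the homeobox gene Meis1 had 41 against 3. Nr2f1 and Meis1 passed the filter only through merged cluster 2, so their folds are not read as a result. In adult cluster 4 cells Wt1 had 7 against 2 counts, too few to order them, and merged cluster 0 stood at 3.77.

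The genes of the insulin-like growth factor system summed to 12.1 against 2.999. Igfbp3, a binding protein of these factors (chromosome 11, 7206086 to 7213923, minus strand), stood at 2.79 against 0.353 and Igfbp4 at 2.88 against 0.529. Of 156 Igfbp3 counts in merged cluster 2, 155 lay in adult cluster 0 cells. The Notch list summed to 11.2 against 6.18, with the receptor gene Notch2 at 3.22 against 0.882, and the Wnt list to 7.60 against 3.44, with the agonist gene Rspo1 at 42 against 0 counts, at least 2.84-fold. Epithelial junction genes summed to 17.4 against 12.8, with the claudin gene Cldn4 at 1.95 against 0.353 and Cdh1, the gene of E-cadherin, at 60 against 1 counts. Igfbp3, Igfbp4, Notch2, Rspo1, Cldn4 and Cdh1 passed the filter only through merged cluster 2, so their folds are not read as a result. Calcium-binding genes ran the other way, 63.4 against 107.3, with 4 of 17 higher in merged cluster 4 (Calb1, S100a1, Calm3 and Anxa3) and 1 lower (S100a4), beside 4.15% and 23.9% of all genes.

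Smooth muscle RNA was high in a few cells of merged cluster 2. The 7 marker genes summed to 15.3 against 2.38, with Acta2 (alpha smooth muscle actin) at 5.31 against 0.618 and Tagln at 3.36 against 0.353. The sum per cell ran from 0 to 227.3 in merged cluster 2 (median 2.18, 10 cells at 10 or more) and from 0 to 35.7 in merged cluster 4 (median 0, 10 cells at 10 or more). In a cell under 1000 UMI, 1 marker UMI already exceeds that mark of 10. Merged cluster 4 had 34 such cells and merged cluster 2 had 0, so the 2 numbers of cells cannot be compared. In adult cluster 0 cells the sums were 4.02 and 3.61, and in adult cluster 5 cells 71.2 and 1.23. Of the 69 Des counts of merged cluster 2, 6 lay in adult cluster 0 cells. All measured markers passed the filter only through merged cluster 2, so their number is not read. Markers of fibroblasts summed to 2.57 and 0.882, and those of leukocytes to 1.02 and 0.353.

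The fold between the clusters fell with transcript length. Of 1380 genes with a mean level of at least 1 per 10000, without ribosomal protein and mitochondrial genes, 1343 (97.3%) had an annotated length. With these genes in 4 classes of like size, from the shortest transcripts to the longest, the median log2 folds of merged cluster 4 over 2 were 0.46, 0.33, 0.16 and 0.04. The genes at least 2-fold lower in merged cluster 4 numbered 3, 4, 14 and 49. Across these genes, which share 1 library and are not independent, Spearman's rho was −0.27. Among cells of 2000 to 4000 UMI it was −0.13, with class medians of 0.36, 0.30, 0.27 and 0.08.

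A like division by Malat1 was present inside the multiciliated cluster. Of the 197 adult cells of merged cluster 0, 120 had at least 20 Malat1 UMI per 10000 and 77 fewer, 54 of them none. Their median depths were 3639 and 875 UMI. The authors' merged clustering kept these cells under 1 number. In the adult clustering 178 of the 197 carried number 1 and 17 number 3, with median depths of 3049 and 1086 UMI. The 2 sides of the Malat1 division were not matched by adult cluster number. In the cells with less Malat1, Xist was 1.61 against 8.17, Neat1 0.963 against 3.03 and mt-Co1 42.2 against 115.1, Fos 7.17 against 12.8 and Hspb1 2.78 against 0.309. Of 5367 measured genes 1324 (24.7%) were lower and 117 (2.18%) higher in the cells with less Malat1.

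Gene by gene the 2 divisions resembled each other in part. Across 1060 genes with a mean level of at least 1 in both, leaving out Malat1, Pearson's r was 0.51 and Spearman's rho 0.45. The comparisons share the library and no cell. Of 43 such genes at least 2-fold lower in merged cluster 4, 23 were at least 2-fold lower in the multiciliated cells with less Malat1. Of all 1691 genes of that level in multiciliated cells, a wider set than the 1060, 8.63% were lower there. Of 69 genes at least 2-fold higher in merged cluster 4, 6 were at least 2-fold higher there, beside 2.90% of the same 1691 genes. At 2000 to 4000 UMI, where 65 and 6 multiciliated cells remained, 22 of 69 were higher and 24 of 37 lower. The shares of all 1787 genes of that level in those multiciliated cells were 21.2% higher and 14.6% lower. Spearman's correlation of fold with length there was −0.15, against −0.40 over all multiciliated cells. In the multiciliated cells with less Malat1, Thrsp stood at 1.39 against 0.103 (13 and 5 counts), and S100b at 3.21 against 3.36. The median folds of multiciliated cells by length class were 0.46, 0.16, 0.04 and −0.12.

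**Figure D5:**
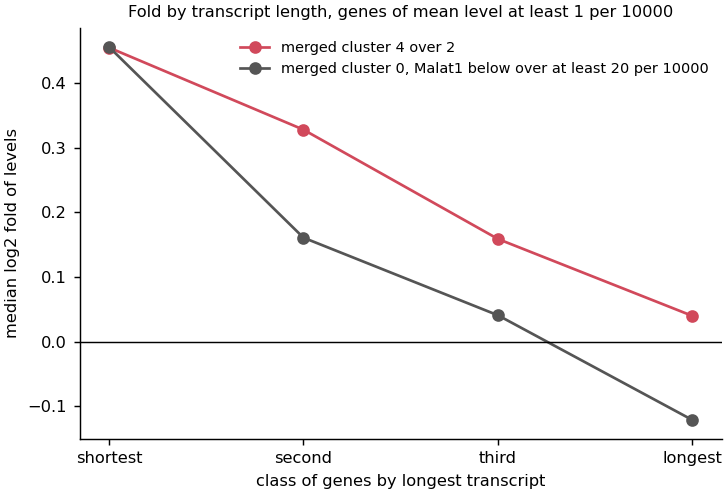
Median log2 fold of levels in 4 equal classes of genes by the length of the longest annotated transcript, for merged cluster 4 over 2 (red) and, inside merged cluster 0, cells with less than 20 over cells with at least 20 Malat1 UMI per 10000 (grey). Both lines fall from 0.46 in the shortest class, to 0.04 and −0.12 in the longest.

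P4 cells had Malat1 throughout. All 263 cells of the P4 table had a Malat1 UMI (8.68 to 1414 per 10000, median 139.4), with a median mitochondrial share of 0.844%. A low mitochondrial share thus stood beside high Malat1 in that library, unlike in merged cluster 4. The P4 cells were also deeper, with medians of 7856 and 7029 UMI in P4 clusters 0 and 1, against 1177 in merged cluster 4. Library, age and depth cannot be told apart in this contrast. Of the 12 genes with the largest folds toward merged cluster 4, 10 were measured at P4 and 4 of them were at least 2-fold higher in P4 cluster 1 than in P4 cluster 0, beside 1.41% of 8721 genes (1.38% were lower). Of the 12 toward merged cluster 2, 11 were measured and 0 differed 2-fold either way. The P4 clusters themselves differed in cell type markers. Secretory markers summed to 27.1 in P4 cluster 1 and 14.3 in P4 cluster 0, and multiciliated markers to 1.705 and 8.63.

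Depth, nuclear RNA, mitochondrial RNA and, in part, the immediate early share moved together with the split in this library. Depth and nuclear RNA cannot be told apart over all cells, and the values at 2000 to 4000 UMI rest on 15 cells a side. Which of them set the authors' clusters was not tested.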

How the data were processed

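The authors deposited UMI counts per gene and cell in tables of the adult cells, the P4 cells and both merged, with tables of their cluster numbers. Cell Ranger and Seurat 2.3.4 with genome build mm10 are named per the submitters' processing notes, without a version of Cell Ranger. Normalization, clustering settings, doublet treatment and strand use are not given in the sources used here, and no doublets were called here. Adult columns of the merged table appear under 2 prefixes. Each barcode was used once, the first prefix going first. Of 183 cells 178 stood under both, 0 with another cluster number, and counts of 402 columns compared with the adult table were equal.

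Counts were pooled over cells (Python 3.11.15, numpy 2.4.6, pandas 2.3.3, scipy 1.17.1), scaled to 10000 UMI, and log2 folds taken with a pseudocount of 0.1. Measured genes had a UMI in at least 10% of cells on either side. With 0 counts in 1 group, a bound was computed against 3 counts over that group. Exact Poisson and conditional ratio intervals at 95% cover counting error only. No p-value was computed, since clusters come from the same expression and there is 1 adult library. Named genes were, on each side, the 12 measured genes with the largest fold (at least 2-fold, at least 20 pooled counts, a UMI in at least 10% of cells of the higher side, without ribosomal, mitochondrial and Gm or Rik genes), up to 4 members past 2-fold of each list, and Ovgp1, Wt1, Pax2, Pax8, Foxj1 and Epcam. Other genes were named after their values were seen. Members and lists were chosen with earlier results of these data known. The steps were tested on simulated data. There were 16 alternatives, and 4 more were chosen after seeing the data. The result of 1 gene is not reported here.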

Additional observations from a re-analysis of the deposited data

How the results depend on the processing

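No paired analysis was possible because the series has 1 adult library and no replicates. Of the main results under the alternatives, 120 stayed within the counting interval or within 1.5 times, 38 moved and 2 turned; where a value changed, the cause was not tested. A gene under 0.265 per 10000 cannot be shown in merged cluster 4. Chosen after seeing the data were the cells of 2000 to 4000 UMI, the filter on a mean level of at least 1, leaving out the merged cluster 4 cells with at least 20 Malat1 UMI per 10000, and totals without Malat1 and mitochondrial genes. The 1384 genes higher in merged cluster 2 became 211 with a pseudocount of 0.5, 2335 with no filter, 437 with a filter of 25% of cells, 255 after thinning cells to 1000 UMI (98 and 51 cells) and 81 with the filter on mean level. The 240 genes higher in merged cluster 4 became 80 with the pseudocount of 0.5, 566 with no filter, 104 with the 25% filter, 776 at 2000 to 6000 UMI, 976 at 2000 to 4000 UMI, 394 in adult cluster 0 cells, 518 in cells with an immediate early share at or above the median and 113 with the filter on mean level. Immediate early genes higher in merged cluster 2 numbered 7, but 4 with the pseudocount of 0.5, 13 at 2000 to 6000 UMI, 11 without cells rich in smooth muscle RNA and 3 in adult cluster 0 cells; 1 was higher in merged cluster 4 below the median immediate early share, against 0. Folding genes higher in merged cluster 2 numbered 1, but 0 with the other prefix, the pseudocount of 0.5, the 25% filter, the filter on mean level or a low immediate early share, 2 with each cell weighing alike, 7 in adult cluster 0 cells and 9 at a high immediate early share. Folding genes higher in merged cluster 4 numbered 1, but 0 with the pseudocount of 0.5, in adult cluster 0 cells and at a high immediate early share, 3 after thinning, 2 at 2000 to 6000 UMI, and 6 at a low immediate early share and at 2000 to 4000 UMI.

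The log2 fold of Ovgp1, 1.01, was 0.835 after thinning, 1.26 at 2000 to 6000 UMI, 1.62 at a low immediate early share, −1.16 in adult cluster 0 cells and −1.925 at a high immediate early share. That of Wt1, −1.19, was −2.40 at a low and −0.50 at a high share. Of 113 single genes 14 turned under some alternative. Among them in adult cluster 0 cells were Acta2 (0.37), Col1a2 (0.33), Fkbp11 (−0.075), Fxyd4 (−0.38), Gcnt3 (−0.55), Sec11c (−0.53) and Serpina1e (−0.76). Among them at 2000 to 4000 UMI were Acta2 (0.25), Dcpp3 (−1.85), Gcnt3 (−0.25), Notch3 (1.795), Ocln (0.20) and Sec61a1 (0.73). Dcpp3 was −1.07 at 2000 to 6000 UMI and −2.62 at a high immediate early share, where Sec11c was −0.235. After thinning Hyou1 was 0.55 and Pcna −0.31.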
